A study of Rattus norvegicus with 32 samples.

Results

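Nuclear receptors are transcription factors that many small lipophilic molecules switch on or off, and 34 of them, outside the circadian clock set and the sex and stress steroid set, were followed in the rat mammary gland over the 4-day estrous cycle. A receptor was taken as measured where an array probe set carrying its symbol alone had a median intensity of 10 or more over 31 rats, and where several did, the one of highest mean log2 intensity was used. By this rule 26 of the 34 genes were measured, out of 11797 genes with a probe set that passed. Of these 26, Rxrg fell in the course of the day, and Nr2f1 and Esrrg were higher on day 3 than on day 1. For the other 23, in the probe set used, no difference along the clock hour or between days passed the adjusted threshold of 0.05 in limma. A second Thra probe set passed along the clock hour, though not without the rat of 17.6 h. The Rxrg call was lost without either of 2 single rats, and the Esrrg call without any of 11.

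The animals were virgin Sprague Dawley rats on a standard chow diet that received no treatment. Each of the 32 arrays held mammary RNA of 1 rat killed at an hour of its own, so no hour had a replicate and a day's rats served as its group. Day 1 held 8 rats (7 to 17.6 h of the cycle), day 2 another 8 (31.6 to 43 h), day 3 again 8 (57 to 67.1 h) and day 4 the last 7 (79.3 to 88.1 h), with estrus on day 2. A further rat of 40 h, which the study left out, was kept out of the main fits. The rats were sampled in daytime between clock hours 7 and 19.1, so no value describes the night. P-values measure the spread between rats around the fit. That spread holds together animal differences, measurement error and any change with the hour that the fit misses.

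The tissue is a mixture, and all 12 markers of luminal epithelium, all 11 of basal and myoepithelial cells and 11 of 12 of adipocytes were measured. In such a sample fewer cells of a type and less RNA per cell cannot be told apart. Skeletal muscle marker content ranged most, with a mean log2 level over its 13 measured genes from -4.09 to 2.85 around each gene's mean. The rats of 86.3, 17.6 and 62.5 h stood apart: the rat of 86.3 h held the highest value of 11.7% of the 22943 probe sets that passed, the rat of 17.6 h the lowest value of 10.1%, and the rat of 62.5 h the highest of 7.84% and the lowest of 7.54%. Among the receptors the rat of 86.3 h held 7 of the 26 highest values. The calls of named genes by limma were therefore also run without each of these 3 rats, and those lost are named.

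Most nuclear receptors share a DNA-binding domain that reads the hexamer AGGTCA and a ligand-binding domain that exchanges corepressors for coactivators. The retinoid X receptors are the common partners of the retinoic acid, thyroid hormone, vitamin D, PPAR and LXR receptors, so their amount bears on many pathways at once. Others, such as the COUP transcription factors and the estrogen-related receptors, have no settled natural hormone and are called orphans, and the NR4A members are induced within minutes by many stimuli. In the mammary gland this superfamily is best known for the estrogen and progesterone receptors, which are not described here.

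The promoters of the 3 genes that passed a test are shown because Nr2f1 and Esrrg moved between the same days and Rxrg moved along the day. The windows run from 250 bases before to 50 bases after an annotated RefSeq start in build GRCr8, and 22 of the 26 measured genes matched a window by symbol. Capitals mark the hexamer AGGTCA, here on the other strand as TGACCT. Esrrg has 4 annotated starts, and the window with the hexamer is given. The arrays do not tell which start was used.
Rxrg, chr13:82276237-82276536, plus strand: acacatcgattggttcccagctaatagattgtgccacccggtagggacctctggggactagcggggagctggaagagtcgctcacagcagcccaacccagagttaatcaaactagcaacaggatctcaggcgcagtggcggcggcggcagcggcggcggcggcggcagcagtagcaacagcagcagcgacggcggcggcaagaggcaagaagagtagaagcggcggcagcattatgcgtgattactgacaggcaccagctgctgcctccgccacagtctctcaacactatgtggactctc
Nr2f1, chr2:9785875-9786174, minus strand: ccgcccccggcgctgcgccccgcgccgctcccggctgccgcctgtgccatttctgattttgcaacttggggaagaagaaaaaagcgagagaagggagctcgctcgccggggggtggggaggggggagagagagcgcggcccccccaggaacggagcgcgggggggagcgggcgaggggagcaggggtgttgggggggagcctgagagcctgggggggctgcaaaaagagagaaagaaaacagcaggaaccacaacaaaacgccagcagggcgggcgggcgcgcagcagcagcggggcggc
Esrrg, chr13:101755510-101755809, plus strand: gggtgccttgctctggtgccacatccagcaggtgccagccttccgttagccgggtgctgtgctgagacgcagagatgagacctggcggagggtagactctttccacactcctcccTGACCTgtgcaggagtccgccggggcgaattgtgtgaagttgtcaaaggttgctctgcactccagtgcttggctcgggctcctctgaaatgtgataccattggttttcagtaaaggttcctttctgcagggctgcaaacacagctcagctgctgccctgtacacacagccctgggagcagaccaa
The hexamer was found on either strand in 16.2% of the 33365 distinct promoter windows of the genome table. It was found in windows of 3 of the 22 receptors, Esrrg, Nr5a2 and Rarg. A receptor with several windows was counted if any held the hexamer, so this count and the share of windows are not alike. In Esrrg the hexamer began 135 bases before the start. None of the 22 held the NR4A site AAAGGTCA (1.42% of all windows), which contains the hexamer, the CRE TGACGTCA (1.83%), the E-box CACGTG (6.43%) or the D-box TTATGTAA (0.896%). The Nr2f1 window was 70.3% G or C, the Rxrg window 60.7% and the Esrrg window 57.7%, against a median of 51.7% over all windows. The other 3 Esrrg windows ran from 45.3% to 75%.

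The 8 receptors without a usable value were sorted as follows. Ppara, the fatty acid receptor best known from liver, had a highest probe set median of 4.80, the bile acid receptor Nr1h4 6.39, the xenobiotic receptor Nr1i3 4.47, and the atypical receptors Nr0b1 and Nr0b2, which lack the DNA-binding domain, 4.75 and 5.19. Rorb lay just outside the limit at 9.64. Nr6a1 and Nr2e3 had no probe set with their symbol alone. Just inside the limit was the testicular receptor Nr2c2 with a median of 12.6, which was also the single measured receptor below 10 on an array, at 9.44 in the rat of 86.3 h. An intensity depends on the probes as well as on the transcript, so levels are compared below within a gene and not between genes.

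**Figure D1:**
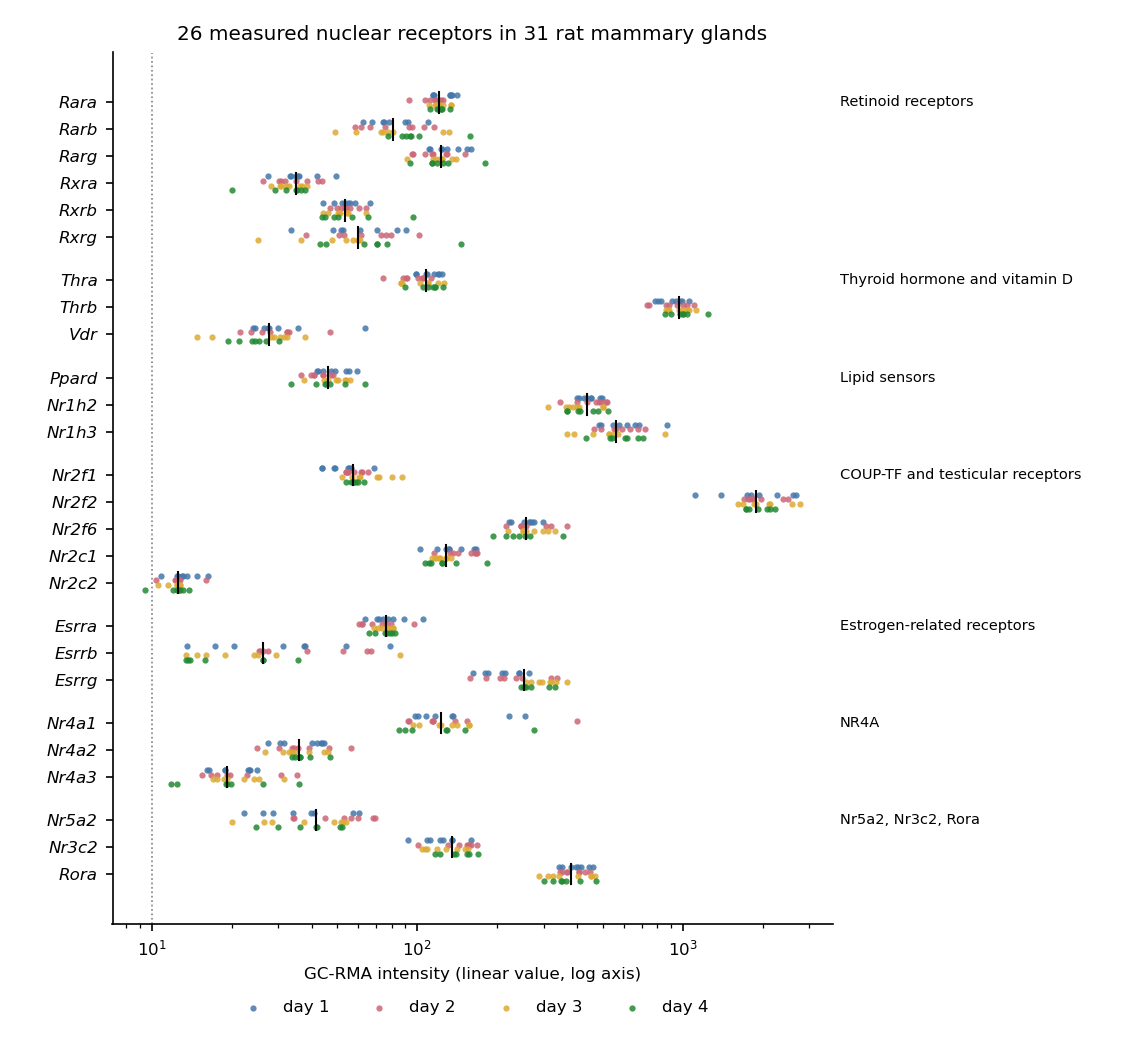
GC-RMA intensity (log axis) of the 26 measured receptors, with 1 point for each of the 31 rats, coloured by cycle day, and a black bar at the median. The dotted line is the limit of 10, and rows are grouped by receptor class. Points of the 4 days lie over each other for most genes, Esrrb spreads from 13.4 to 86.4, and Rara spans only 92.8 to 141.

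Among the retinoic acid receptors, Rara and Rarg were steady and Rarb less so. Rara, the broadly expressed form, ran from 92.8 to 141 with a median of 121 and had the smallest spread of all 26 genes (SD 0.12 on the log2 scale, n = 31). Rarg ran from 91.5 to 180 with a median of 123. Rarb, itself a known retinoic acid target, ran from 49.1 in the rat of 59.8 h to 158 in the rat of 79.3 h, a 3.21-fold range. The day means of Rarb were 81.1 ± 15.4, 84.1 ± 21.6, 83.9 ± 29.6 and 101 ± 26.3 (SD, n = 8, 8, 8 and 7), which overlapped in all 4 days. The retinoid X receptors Rxra and Rxrb had medians of 34.8 and 53.4 and ranged 2.47-fold and 2.20-fold. Rxrg, the form otherwise known from muscle, brain and brown fat, ranged 5.84-fold, from 25.02 to 146.

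The thyroid hormone receptor Thrb was among the steady genes, with 737 to 1250 over the rats and a median of 968. Thra ran from 74.5 to 126. Vdr, the vitamin D receptor, ran from 14.8 to 63.7 with a median of 27.6, and its highest value came from the rat of 17.6 h. Of the lipid sensors, Ppard had a median of 46.3, the oxysterol receptor Nr1h2 (LXRbeta) 437 and its relative Nr1h3 (LXRalpha) 563. Nr1h3 ranged from 368 to 870, and neither LXR gene separated the days.

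The COUP transcription factor Nr2f2, known from mesenchyme and veins, had a median of 1882 and ran from 1109 at 17.6 h to 2762 at 67.1 h. Nr2f6 had a median of 256 with a probe set that is not unique to 1 transcript, so its value may hold a related sequence. The estrogen-related receptors Esrra and Esrrg, which drive mitochondrial and oxidative genes, had medians of 76.1 and 254. Esrrb, better known from stem cells, was the most variable member, with a median of 26.2, an SD of 0.80 on the log2 scale and a 6.45-fold range. Its highest values came from the rats of 62.5 h (86.4), 17.6 h (79.3) and 38.3 h (67.1), of 3 different days. Nr4a1 had a median of 123 and 1 rat, that of 41.6 h, at 400. Nr5a2, a regulator of aromatase and cholesterol genes elsewhere, ran from 20.1 to 69.3, the mineralocorticoid receptor Nr3c2 from 92.7 to 169, and Rora, which competes with the REV-ERB clock receptors for the same DNA sites, from 286 to 472.

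In all, 13 of the 26 genes ranged more than 2-fold over the rats and 7 more than 3-fold. The median SD over the 31 rats was 0.23 on the log2 scale for the 26 genes and 0.24 for all 22943 probe sets, so as a group the receptors varied about as much as the array as a whole.

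The first comparison asked which receptors change with the hour of the day. Rxrg was the member that did: its intensity was lower in later hours on each of the 4 days. On day 1 it went from 84.2 in the first rat, of 7 h, to 33.5 in the last, of 17.6 h. On day 2 the first rats, of 31.6 and 32.8 h, had 80.0 and 102 and the last, of 43 h, had 37.98. On day 3 the first rat had 59.9 and the last 36.4, with the lowest value of the series, 25.02, between them at 62.5 h. On day 4 the first rat had 146 and the last 43.2. The 14 rats sampled up to a clock hour of 11.9 had a lowest value of 51.5, a median of 66.6 and a highest of 146, and the 17 rats sampled from 13 h on had 25.02, 50.9 and 90.5, so the earlier and later rats overlapped.

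In the limma fit with cycle day as a factor, Rxrg changed by -0.83 on the log2 scale over 10 h (SE 0.19, 95% interval -1.23 to -0.43, adjusted p = 0.018). It was 1 of 26 receptors called, or 3.85%, against 1.76% of all probe sets in either direction and 0.68% in this direction. The slopes fitted to the single days were -0.55, -0.99, -0.57 and -1.44, and no difference between them was shown (unadjusted p = 0.44, adjusted p = 0.9999). The call rested on single rats: the adjusted p was 0.052 without the rat of 17.6 h and 0.060 without the rat of 43 h, and 0.32 without day 2 and 0.10 without day 4. With cosine and sine terms in place of the slope it was 0.089, in a test that called 1.34% of all probe sets. The slope lay between -0.92 and -0.72 without each single rat. Without the rats of 62.5 and 86.3 h in turn the adjusted p was 0.00785 and 0.0185.

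Of the other 25 receptors 17 had a positive slope and 8 a negative one, and their adjusted p-values ran from 0.088 to 0.99. Their slopes lay between -0.28 and 0.33 over 10 h, and the 95% interval stayed within 0.5 either way for 20 and within 1 for 24, with Esrrb the exception. Nr2f1 was closest to the threshold with a slope of -0.28 (adjusted p = 0.088), followed by Nr2c1 with 0.29 (0.14), Esrra with 0.23 (0.24), Thrb with 0.20 (0.32) and Nr2f6 with 0.24 (0.37). These 5 and Rxrg were the 6 receptors with an unadjusted p under 0.05, a level that 12.1% of all probe sets reached. The median slope was 0.04 over the 26 genes and 0.02 over all probe sets.

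**Figure D2:**
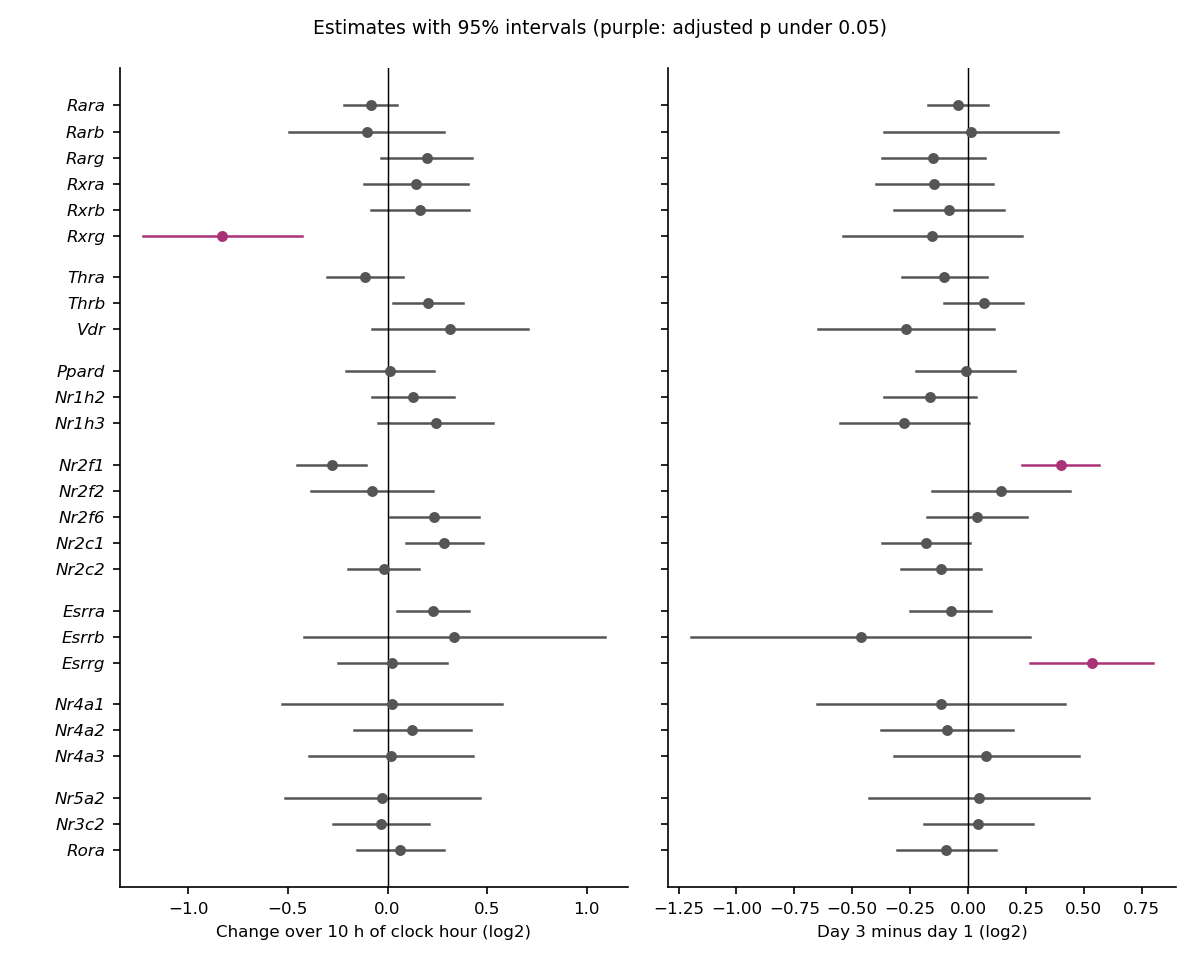
Estimated change over 10 h of clock hour (left) and day 3 minus day 1 (right) on the log2 scale for the 26 receptors, with 95% intervals from limma. Purple marks an adjusted p under 0.05: Rxrg at -0.83 in the left panel, and Nr2f1 at 0.40 and Esrrg at 0.53 in the right panel. Esrrb has the widest interval in both.

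A second probe set of Thra went against the chosen one. The chosen Thra probe set had a slope of -0.11 (SE 0.09, adjusted p = 0.66), with an earlier mean of 106 ± 11.8 (SD, n = 14) and a later mean of 105 ± 14.9 (SD, n = 17). The other probe set fell by 0.55 on the log2 scale over 10 h (SE 0.14, adjusted p = 0.034), from 92.9 ± 10.7 in the earlier rats to 76.9 ± 20.5 in the later ones. Of the 17 later rats 7 lay below the lowest earlier value of 73.2, the lowest of them those of 17.6, 64.2, 41.6 and 16 h with 44.5, 51.8, 52.3 and 58.4, while the later rat of 86.3 h had the highest value of all, 130. The call did not hold without the rat of 17.6 h (-0.46, adjusted p = 0.097), and held without those of 62.5 and 86.3 h. Over the 31 rats the pair correlated with r = 0.32. Thra makes transcripts with different ends, and in the GRCr8 gene table its end overlaps that of Nr1d1, the REV-ERBalpha clock receptor, whose own probe set rose by 2.30 over 10 h (SE 0.46, adjusted p = 0.0037). Which Thra transcripts each probe set reads was not tested.

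**Figure D3:**
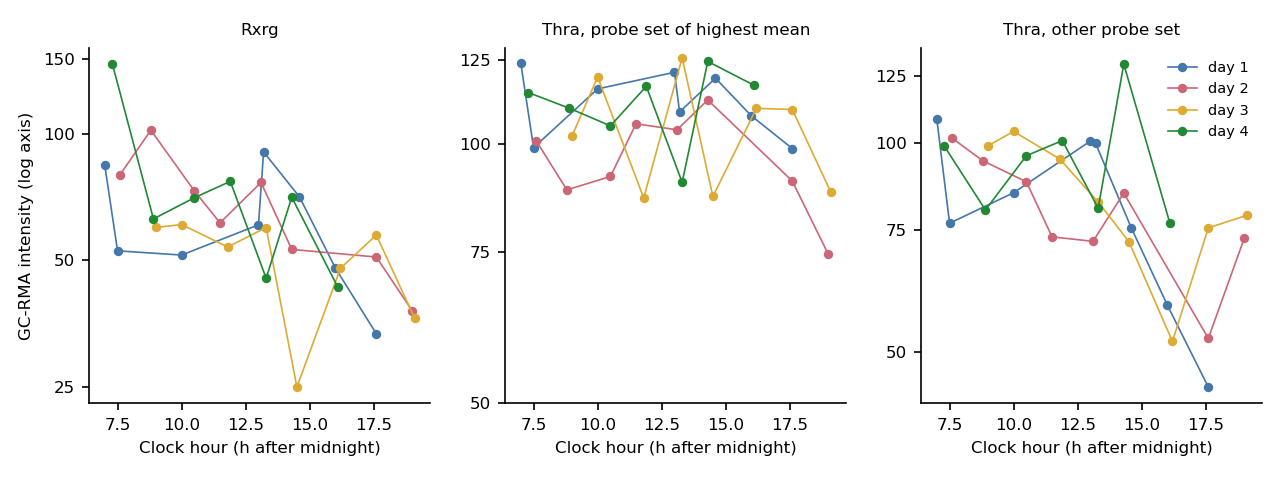
Intensity (log axes) against clock hour for Rxrg and for both Thra probe sets, with 1 point per rat and a line joining the rats of each day. Rxrg ends each day below its first rat, at 33.5 after 84.2 on day 1 and at 43.2 after 146 on day 4. The other Thra probe set is at 44.5 in the last rat of day 1, while the probe set of highest mean has no slope past the threshold.

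The second comparison asked which receptors differ between the days of the cycle at equal clock hour. Nr2f1 (COUP-TFI), an orphan receptor that mostly represses transcription, was higher on day 3. Its values had a lowest of 43.9, a median of 51.9 and a highest of 68.7 on day 1, and 52.1, 65.7 and 87.8 on day 3. The days overlapped, with 4 of 8 rats of day 3 above every rat of day 1. The means of the 4 days in turn were 52.6 ± 8.15, 57.9 ± 4.45, 67.6 ± 12.3 and 58.1 ± 2.80 (SD, n = 8, 8, 8 and 7). Day 3 minus day 1 was 0.40 on the log2 scale (SE 0.08, 95% interval 0.24 to 0.57, adjusted p = 0.013), and the call held without each single rat, with adjusted p from 0.0054 to 0.046.

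Esrrg was the other gene called between days, and in the probe set used the last 2 rats of day 2 were already high. On day 1 it had a lowest value of 162, a median of 212 and a highest of 264, and on day 3 it had 257, 305 and 367, so the days overlapped only narrowly. The rats of day 2 were divided: those of 31.6 to 38.3 h lay between 158 and 247, and those of 41.6 and 43 h had 336 and 320. On day 4 the values ran from 246 to 331. Day 3 minus day 1 was 0.53 on the log2 scale (SE 0.13, 95% interval 0.27 to 0.80, adjusted p = 0.038). Leaving out any of 11 rats, those of 7.5, 10, 13.2, 14.6, 16, 17.6, 57, 58, 59.8, 61.3 and 67.1 h, brought the adjusted p to between 0.053 and 0.11, without a change of direction.

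When the rats were regrouped at the end of day 2, as an alternative chosen with the series' other genes known, the 10 rats of 41.6 to 67.1 h had Esrrg at 310 ± 33.3 and the 14 rats of 7 to 38.3 h at 210 ± 33.2 (SD). Of the 10 later rats 9 were above every earlier rat, and the difference was 0.63 on the log2 scale (SE 0.09, adjusted p = 6.4e-05). The regrouping holds all rats of days 1 and 3 and places the 2 high Esrrg rats of day 2 with day 3. It is therefore no separate support for the day difference, and it is not given for the second Esrrg probe set. Nr2f1 differed by 0.33 (SE 0.07, adjusted p = 0.015), although the rats of 41.6 and 43 h were at 54.7 and 53.8, the low end of day 2. These were 2 of 26 receptors higher at 41.6 to 67.1 h than at 7 to 38.3 h, or 7.69%. Of all probe sets 0.776% passed in that direction and 1.89% in both. The 7 rats of day 4 stood outside this contrast, with Esrrg at 275 ± 34.1 and Nr2f1 at 58.1 ± 2.80 (SD). In the 14 rats of 7 to 38.3 h Nr2f1 was at 55.4 ± 7.42.

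A second Esrrg probe set followed the first with r = 0.70 over the 31 rats. It had day means of 70.1 ± 17.4, 74.1 ± 15.9, 93.3 ± 15.9 and 94.6 ± 14.7, and its day 3 minus day 1 was 0.45 (SE 0.16), which did not pass (adjusted p = 0.18). With the mean of both probe sets the difference was 0.49 and the adjusted p 0.055. In the rats of 41.6 and 43 h the second probe set had 108 and 77.97, where its highest value of day 1 was 90.9. The high level at 43 h was thus seen in the first probe set only.

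**Figure D4:**
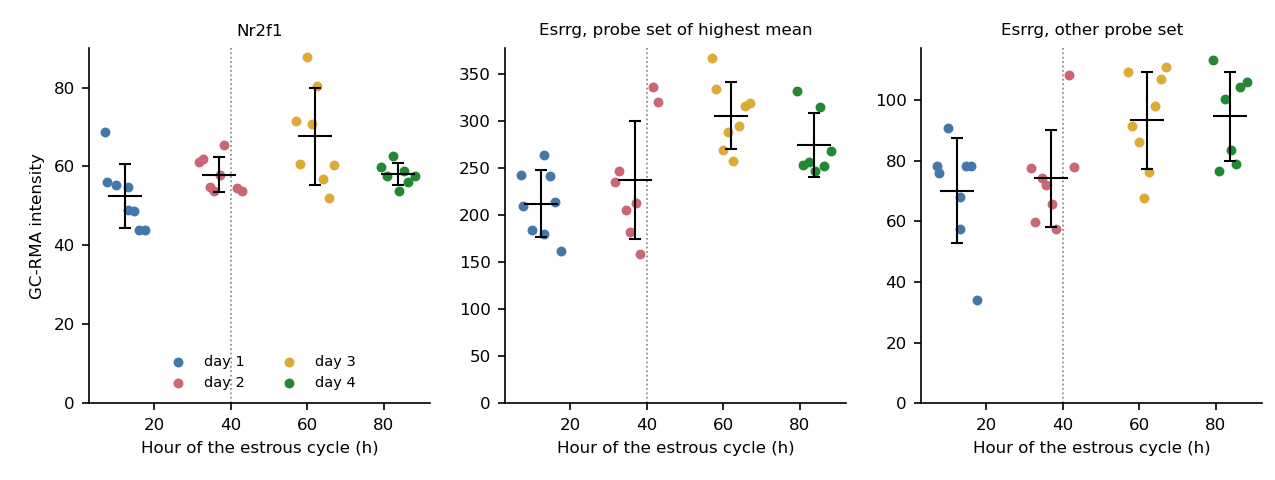
Intensity against hour of the cycle for Nr2f1 and both Esrrg probe sets, with 1 point per rat, a black bar at each day's mean and error bars of 1 SD. The dotted line at 40 h parts the rats of 41.6 and 43 h from the rest of day 2. Esrrg of the probe set of highest mean is at 336 and 320 in those 2 rats. Day 3 spans 257 to 367 and day 1 spans 162 to 264, and Nr2f1 is highest at 87.8 on day 3.

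Nr2f1 and Esrrg were 2 of 26 receptors called for day 3 against day 1, or 7.69%, against 0.955% of all probe sets in either direction and 0.327% higher on day 3. In this and the other shares each receptor has 1 probe set, that of highest mean. All probe sets also include further ones of the same gene and those without a symbol, so the shares are not fully alike. The background was 0.00436% for day 2 against day 1, 0.0218% for day 4 against day 1, 0.227% for day 3 against day 2, 0.0479% for day 4 against day 2 and 0% for day 4 against day 3, and no receptor passed in these 5 comparisons. At an unadjusted p under 0.05 limma gave 4, 1, 3, 2 and 1 receptors there, against 5.82%, 6.39%, 12.4%, 7.36% and 5.79% of all probe sets. In the F test over all days, which called 0.501% of the probe sets, 0 of 26 receptors passed (Nr2f1 adjusted p = 0.062, Esrrg 0.10), and 3 had an unadjusted p under 0.05, Esrrg, Nr2c1 and Nr2f1, a level that 10.9% of all probe sets reached.

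The other 24 receptors differed between day 3 and day 1 by -0.46 to 0.14 on the log2 scale, with adjusted p from 0.38 to 0.99. Their 95% interval stayed within 0.5 for 18 and within 1 for 23, and Esrrb was again the exception, at -0.46 with an interval from -1.19 to 0.27. Nr1h3 and Vdr both had -0.27, neither past the threshold. The median over the 26 was -0.09, against 0.00 over all probe sets.

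Cell type markers moved on day 3 as well. Of the 11 basal and myoepithelial genes 5 were higher on day 3 than on day 1 (Tagln, Cnn1, Myh11, Mylk and Actg2, genes of the contractile apparatus) and 1 was lower (Oxtr, the oxytocin receptor), with a list median of 0.47. The mean level of that list spanned -0.51 to 0.10 among the day 1 rats and -0.24 to 0.40 among the day 3 rats. Of the 12 luminal genes 2 were higher (Krt8 and Krt18, median 0.11), of the 9 fibroblast genes 1 (Lum, median 0.07), and 1 each was lower of 12 macrophage genes (Cd163, median -0.35) and 5 Schwann cell genes (Mal, median -0.05). No marker passed among 9 endothelial, 11 adipocyte, 13 muscle and 7 lymphocyte genes, although the lymphocyte list had a median of 0.95 and its level spanned -0.87 to 2.48 on day 3. Without the rat of 17.6 h Mylk (adjusted p = 0.066), Krt18 (0.052) and Lum (0.11) did not pass, and without that of 62.5 h Krt8 (0.06), Oxtr (0.067) and Lum (0.078) did not. When the endothelial, fibroblast, basal and Schwann cell levels were added as covariates, a setting chosen after the values had been seen, day 3 minus day 1 was 0.24 for Nr2f1 (adjusted p = 0.84) and 0.25 for Esrrg (adjusted p = 0.86), and 0 of all 22943 probe sets passed, in place of 219. With the adipocyte, muscle, luminal and lymphocyte levels instead, it was 0.38 (adjusted p = 0.033) and 0.63 (0.019). The part of these cell types in the difference was not tested further.

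No receptor had a curve in the clock hour that passed, a test that called 0.0131% of the probe sets. Rarb and Esrrg had unadjusted p-values of 0.011 and 0.012, both with a curve that opened upward (adjusted p = 0.9995). They were the 2 receptors with an unadjusted p under 0.05, which 4.4% of all probe sets reached. The slope along the day differed between days for 0.00436% of the probe sets and for 0 receptors, with 0 at an unadjusted p under 0.05 against 3.66% of all probe sets.

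Method 1 is the study's own test, which asks how much of a gene's variance a smooth spline over the whole cycle can hold, as the ratio rho of fitted to observed variance, at a false discovery rate of 0.25. It called 4 of the 26 receptors, or 15.4%, against 8.04% of all probe sets. Nr2f1 had a rho of 0.65, Rxrg 0.53, Esrrg 0.52 and Nr2c1, a testicular orphan receptor, 0.49. Every other receptor was at or below 0.43, the rho of Rara, and Nr4a1 was lowest at 0.07. The median rho was 0.30 for the 26 receptors, 0.25 for all probe sets and 0.22 for permuted data. Of 35 settings of the method Nr2f1 was called in 35, Esrrg in 31, Rxrg in 27 and Nr2c1 in 22. Without the rats of 16, 35.5 or 57 h the method called 1 receptor, and without those of 43 or 59.8 h it called 2. The calls over all probe sets fell with them, from 1845 to 777, 680, 724, 944 and 761 without the rats of 16, 35.5, 57, 43 and 59.8 h.

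Nr2c1 ran from 103 to 184, with day means of 136 ± 21.7, 148 ± 19.2, 123 ± 7.21 and 129 ± 26.7 (SD, n = 8, 8, 8 and 7). Its second probe set correlated with the first at r = -0.14 and had a slope of 0.01, so the other probe set did not share the slope estimate of the first. Among the 9 receptors with several probe sets that passed, 1 other Thrb probe set (r = -0.15) and 1 other Nr2f2 probe set (r = 0.13) also had little relation to the chosen one, and the rest had r = 0.28 to 0.70.

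Receptor levels were also set beside 11 marker lists over the 31 rats, 286 pairs in all, with 100000 permutations. In 7 pairs both Pearson's r and Spearman's rho had an adjusted p under 0.05. The correlations were not run for the other probe sets, so the share of all probe sets at this level is not known. The count therefore cannot be read as a trait of the receptors. Rxrg followed the endothelial list (r = 0.67, permutation p = 4e-05, adjusted p = 0.0038; rho = 0.60, permutation p = 0.00058, adjusted p = 0.033), with r = 0.63 without the 2 rats of most extreme list level and 0.40 to 0.76 within single days. The endothelial list itself changed by -0.08 on the log2 scale over 10 h, with 0 of 9 genes past the threshold. The Rxrg slope was -0.71 over 10 h with the endothelial, fibroblast, basal and Schwann cell levels as covariates (adjusted p = 0.023) and -1.10 with the adipocyte, muscle, luminal and lymphocyte levels (adjusted p = 0.0011). Among the adipocyte genes Plin4 and Cidec rose along the day and among the fibroblast genes Pdgfra fell, the last not without the rat of 17.6 h (adjusted p = 0.11). The thermogenic fat and muscle lists, 2 and 13 genes, changed by -0.77 and -1.10 over 10 h without a gene past the threshold. Rxrg had r = 0.51 with thermogenic fat (permutation p = 0.00265, adjusted p = 0.047, and rho = 0.40, permutation p = 0.0262, adjusted p = 0.21). With muscle it had r = 0.38 (permutation p = 0.0347, adjusted p = 0.22, and rho = 0.39, permutation p = 0.0309, adjusted p = 0.22). Neither pair met both criteria. Nor did those of Rxrg with the luminal list (r = -0.50, permutation p = 0.00435, adjusted p = 0.054, and rho = -0.51, adjusted p = 0.097) and the fibroblast list (r = 0.49, permutation p = 0.00651, adjusted p = 0.067, and rho = 0.41, adjusted p = 0.21).

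The LXR genes followed the adipocyte list, Nr1h3 with r = 0.66 (permutation p = 0.00012, adjusted p = 0.0086; rho = 0.61, permutation p = 0.00041, adjusted p = 0.029) and Nr1h2 with r = 0.60 (permutation p = 0.00038, adjusted p = 0.015; rho = 0.58, permutation p = 0.00075, adjusted p = 0.036). Without the 2 most extreme rats the values were 0.58 and 0.59, and within days r ran from 0.32 to 0.75 and from 0.31 to 0.72. Rarg also rose with the adipocyte list (r = 0.58, permutation p = 0.00056, adjusted p = 0.02; rho = 0.62, permutation p = 0.00033, adjusted p = 0.029) and with the Schwann cell list (r = 0.67, permutation p = 3e-05, adjusted p = 0.0038; rho = 0.56, permutation p = 0.00122, adjusted p = 0.0498). Without the 2 most extreme rats r was 0.58 and 0.63, and within days it ran from 0.54 to 0.78 and from 0.51 to 0.95. These values are of the chosen Rarg probe set only, with which the other one correlated at r = 0.34. Rarb followed the fibroblast list (r = 0.57, permutation p = 0.00081, adjusted p = 0.021; rho = 0.64, permutation p = 0.00023, adjusted p = 0.029), with r = 0.64 without the 2 most extreme rats and 0.52 to 0.79 within days. Esrrg ran against the Schwann cell list (r = -0.53, permutation p = 0.00204, adjusted p = 0.045; rho = -0.65, permutation p = 0.00013, adjusted p = 0.029), with -0.63 without the 2 most extreme rats. Within days r was 0.000223, -0.83, -0.10 and -0.29, so the relation did not hold on day 1 or day 3. Vdr and the luminal list had r = 0.57 (permutation p = 0.00074, adjusted p = 0.021) and rho = 0.55 (permutation p = 0.00161, adjusted p = 0.058), which missed the second criterion. All these values come from the same arrays and share their normalization.

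**Figure D5:**
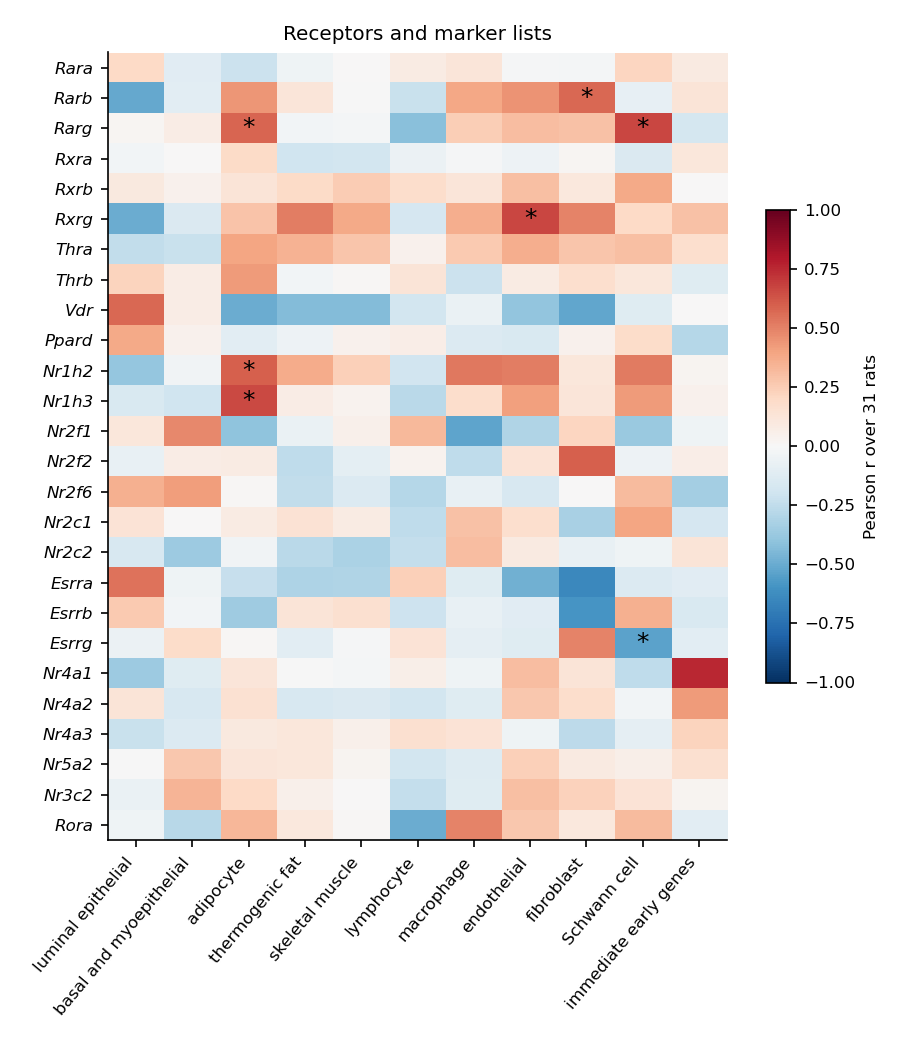
Pearson r over 31 rats between the log2 intensity of each receptor (rows) and the mean level of each marker list (columns), from -1 in blue to 1 in red. Stars mark the 7 pairs in which r and rho both had an adjusted p under 0.05, among them Rxrg with endothelial genes at 0.67 and Nr1h3 with adipocyte genes at 0.66.

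The NR4A genes encode factors that act without a known hormone and belong to the immediate early response. The 4 highest values of Nr4a1 were 400 (rat of 41.6 h), 275 (80.9 h), 256 (13 h) and 222 (13.2 h). The other 27 rats lay between 85.7 and 157. It followed the immediate early list with r = 0.76 (permutation p = 1e-05, the smallest the permutations can give, adjusted p = 0.0029), but rho was 0.47 (permutation p = 0.00887, adjusted p = 0.12), r was 0.56 without the 2 most extreme rats, and on day 3 it was 0.06. Nr4a2 ran from 24.95 to 56.3 and Nr4a3 from 11.8 to 35.8. None of the 3 had a slope or a day difference past the threshold, and their slopes were 0.02, 0.12 and 0.02 over 10 h.

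The partners and targets of the receptors were read from fixed lists. Of 18 measured coregulators, the coactivators and corepressors that receptors recruit, 0 passed along the clock hour and 0 for day 3 against day 1, with medians of 0.06 and -0.04. Of 16 measured genes of retinoid transport and metabolism 0 passed in both comparisons, with medians of 0.00 and -0.13. Of 5 measured thyroid hormone genes Klf9, a transcription factor induced by thyroid hormone and glucocorticoid, rose along the day by 0.74 over 10 h (SE 0.14, adjusted p = 0.0024) and was lower on day 3 than on day 1, with a difference of -0.55 (SE 0.14, adjusted p = 0.046), with list medians of 0.21 and -0.34. Of 8 LXR target genes Srebf1, the regulator of fatty acid synthesis, rose along the day by 0.77 (SE 0.18, adjusted p = 0.017), and the lipoprotein gene Apoe was lower on day 3, with a difference of -0.26 (SE 0.06, adjusted p = 0.034), with list medians of 0.05 and -0.16. Of 3 measured vitamin D genes Lrp2, the uptake receptor megalin, was lower on day 3, at 15.2 ± 5.03 against 89.7 ± 51.9 on day 1 (SD, n = 8 each), a difference of -2.20 on the log2 scale (SE 0.45, adjusted p = 0.015). The median of that list was -0.12, with 1 of 3 estimates positive. Of 8 PPAR target genes Ehhadh, a peroxisomal fatty acid oxidation enzyme, rose along the day by 1.07 (SE 0.17, adjusted p = 0.00021). The other PPAR targets did not share this, as the list median was -0.01 with 4 of 8 slopes positive. Of all probe sets 1.76% passed along the clock hour and 0.955% for day 3 against day 1, each in either direction. Srebf1 did not pass without the rat of 17.6 h (adjusted p = 0.052), and Klf9 between days (0.096) and Apoe (0.069) did not without that of 62.5 h.

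Nuclear receptors of the clock and steroid sets, which lie outside the list, are given for comparison together with the lipid sensor Pparg. Of the 6 measured genes of this comparison list, Nr1d1, Nr1d2 and Pparg rose along the day and Pgr was lower on day 3. Of all probe sets 1.76% passed along the clock hour and 0.955% for day 3 against day 1, each in either direction. The median slope of the comparison list was 0.75 over 10 h, against 0.04 for the 26 receptors described here. Pparg did not pass without the rat of 86.3 h (adjusted p = 0.06). No test of the difference between the lists was made, and the lists were chosen with earlier results of these data known.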

How the data were processed

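From the Affymetrix scans the authors computed intensity by GC-RMA, a method whose background model uses the GC content of the probes and which normalizes between arrays (its version is not given in the sources used here). They are linear, from 2.22 to 37317, with array medians of 49.9 to 54.7. The number of arrays limits the precision, and no batch was known. Symbols came from the platform annotation: of 31042 probe sets that are not controls, 20826 had 1 symbol, 436 several and 9780 none. Probe sets with a median of 10 or more over 31 arrays, 22943, were kept, where the study required 10 on every array. Log2 intensities were fitted with limma 3.58.1 in R 4.3.3, with cycle day as a factor and clock hour as a slope centred at 12.5 h, adding a squared term or day by hour terms in turn, with Benjamini-Hochberg adjustment over all 22943 and a threshold of 0.05. Method 1 used the study's order 2 spline, knots and permutation vector. Marker list levels are means of centred log2 values. All 26 measured genes are described, those that passed a test by rat, and of the fixed lists those past the threshold are named. Correlations among members were added after seeing the data. The members and lists were chosen with earlier results of these data known. Scripts were tested on simulated data. Alternatives covered the filter, arrays, scale, normalization, variance model, weights, covariates, probe set, clock term, grouping, spline order, false discovery rate and single rats or days. The study describes several glands, frozen, and the labels the fourth glands without lymph nodes in a stabilizing solution, which was not settled here. Python 3.11.15, numpy 2.4.6, scipy 1.17.1 and pandas 2.3.3 were used.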

Additional observations from a re-analysis of the deposited data

Results flagged for a closer look

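Within each day every receptor's highest and lowest rat was compared with its neighbours, 104 groups in all. In 7 of them (6.73%) the gap to the nearest rat was a larger part of the day's log2 range than Dixon's 95% limit allows, where chance gives about 1 in 20.

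The gap was 0.655 of the range for Nr4a1 on day 2, where the rat of 41.6 h stood at 400 and the next at 153. It was 0.604 for Vdr on day 1, with 63.7 at 17.6 h and 35.4 in the next rat. It was 0.623 for Rarb on day 4, with 158 at 79.3 h against 101. It was 0.579 for Esrrb on day 3, with 86.4 at 62.5 h against 29.5 in the next.

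The other 3 were low values. Rxra had a gap of 0.584 on day 4, with 20.1 at 86.3 h against 29.01. Nr2c2 had 0.641 on the same day, with 9.44 in the same rat against 12.03. Rarg had 0.535 on day 3, with 91.5 at 57 h against 115. The rats of 17.6, 62.5 and 86.3 h, which held 4 of the 7 values, also held many extreme values over the whole array.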

How the results depend on the processing

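Of 182 slopes and day differences of single receptors, 177 kept their side of the threshold in every setting run, and none that passed a test changed direction. The exceptions were the Rxrg slope (4 of 45 settings, and the cosine and sine terms, lost the call), the Esrrg (14 of 44) and Nr2f1 (1 of 44) differences between days 3 and 1, and the slopes of Nr2f1 (2 of 45 past it, adjusted p = 0.039 with array weights and 0.043 without the rat of 58 h) and Nr2c1 (1 of 45, 0.027 without the rat of 7.5 h). For Rxrg the adjusted p ran from 0.0011 to 0.32, for Nr2f1 from 0.0053 to 0.84 and for Esrrg from 0.0052 to 0.86. The 44 settings for Nr2f1 and Esrrg also held a different contrast, 41.6 to 67.1 h against 7 to 38.3 h. Its adjusted p was 0.015 for Nr2f1 and 6.4e-05 for Esrrg. Along the clock hour 1 receptor was called, and 2 with array weights, 0 without day 2, 0 without day 4, 0 with cosine and sine terms of the day, and 0 to 2 without single rats (0 without those of 17.6 or 43 h). In the F test over days 0 were called, and 1 with array weights (Nr2f1), 1 without day 2 (Esrrg) and 0 to 1 without single rats, with Nr2f1 passing without those of 7, 58 or 65.6 h and Esrrg without that of 41.6 h. Between pairs of days 2 were called, and 1 with the mean of a gene's probe sets, 0 with the endothelial, fibroblast, basal and Schwann cell levels as covariates (chosen after seeing the data), 0 without day 1, 0 without day 3, 1 without day 4 and 1 to 2 without single rats. Without days 1 or 3 their contrast cannot be formed. Method 1 called 4, and 1 at a false discovery rate of 0.05, 2 with splines of order 3 and 1 to 5 without single rats. Counts over all probe sets moved as well: with array weights the slope called 548 in place of 403 and the F test 359 in place of 115, and without day 2 the slope called 129 and without day 4 260. The causes were not tested. Curves and slope differences between days gave 0 calls in every setting. No paired analysis was possible because each rat has an hour of its own and the labels give no replicate numbers.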

Other observations

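Of the 325 pairs among the 26 receptors, 0 had an adjusted permutation p under 0.05 by both Pearson's r and Spearman's rho over the 31 rats. The largest value was that of Ppard and Nr4a3 (r = -0.63, permutation p = 0.00015, adjusted p = 0.049; rho = -0.53, permutation p = 0.0026, adjusted p = 0.14), with r = -0.48 without the 2 rats of most extreme Ppard level. This comparison was added after the other results were seen.

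The rat of 86.3 h held the highest value of 7 receptors, Rarg, Rxrb, Thrb, Ppard, Nr2c1, Nr1h2 and Nr3c2, and the lowest of 2, Rxra and Nr2c2. On the array of the 40 h rat, which was outside the comparisons, 25 receptors lay within the range of the other 31 rats. Nr4a2 was below it, at 22.97 against a lowest value of 24.95.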
